A study of Mus musculus with 16 samples.

Results

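The comparison set 4 libraries of primary mouse articular chondrocytes that had received bleomycin against 4 libraries that had received vehicle, across all genes with at least 1 FPKM (fragments normalized to transcript length and library size) in at least 4 of these 8 libraries. This rule took 8 of the 16 libraries of the study and 12348 of the 55450 genes listed for each. The medium held 10% fetal bovine serum, and the oxygen was 3%, for all groups. The bleomycin group was treated 2 days after seeding with hyaluronidase at 4 U/mL for 4 h in medium without serum, then with bleomycin at 50 µg/mL for 24 h, after which the cells were washed and kept in fresh medium for 5 days. The vehicle of the study is described as the volume of phosphate-buffered saline that matched the interleukin-1 beta (IL-1β) dose, for 24 h. The other groups of the study, 4 libraries each, received doxorubicin at 50 nM for 5 days or IL-1β at 1 ng/mL for 24 h. The labels do not state the time in culture of the vehicle cells, nor whether they received hyaluronidase, so bleomycin, hyaluronidase and time in culture cannot be told apart here. They do not state either whether the libraries of a group came from separate animals or cultures, so p-values measure only the spread between these libraries.

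Bleomycin is a glycopeptide that binds iron and oxygen and cuts DNA, leaving single- and double-strand breaks. Cells that cannot repair such breaks can stop dividing for good while staying alive and secreting proteins, a state called senescence. In joint cartilage the chondrocyte is the resident cell: it makes collagen II and aggrecan, and senescent chondrocytes are found in osteoarthritis. p53 with its target p21, the RB proteins, interferon-type signalling set off by misplaced DNA, and enlarged lysosomes are the features most often used to describe the state.

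Estimated depth was 16 to 19.55 M mapped fragments per vehicle library and 15.95 to 22.2 M per bleomycin library, and 12014 to 12067 and 12333 to 12481 genes per library had at least 1 FPKM. Replicates of a group correlated at 0.986 to 0.99 and libraries of different groups at 0.954 to 0.961 across genes, which are not independent replicates. The first principal component held 65.3% of the variance and set the groups apart. The second, with 8.8%, set replicate 3 of both groups on one side and replicate 4 of both groups, bleomycin replicate 4 the farthest, on the other. All 14 markers in the chondrocyte list passed the filter, with summed levels of 13655 to 18334 FPKM in vehicle and 10416 to 13890 FPKM in bleomycin, led by Col2a1. Xist, which female cells express, stood at 9.74, 11.9, 9.29 and 11.2 FPKM in vehicle and 8.57, 9.36, 11.8 and 17 in bleomycin, and the Y-linked gene Eif2s3y at 11.5, 12.7, 11.6 and 14.4 and 12.2, 13.1, 11.7 and 14.8 FPKM. Every library therefore held transcripts of both sexes, and neither gene passed the test.

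With bleomycin 5929 of the 12348 genes changed, that is, passed an adjusted p under 0.05, which is 48.0% of those tested. Of these, 3490 rose (28.3%) and 2439 fell (19.8%), so that 58.9% of the changes were increases. Under other scalings this split was 49.8% (median of ratios) and 48.5% (quantile normalization). Of the 12348 genes 2898 rose and 2920 fell with median of ratios, and 2777 and 2952 with quantile normalization. Rescaled counts of a list are to be read against these. Most changes were small: 59.0% of the changed genes differed by less than 0.5 on the log2(FPKM + 1) scale, and their median size was 0.44. At least 2-fold, 332 genes rose (2.69%) and 110 fell (0.891%), together 442 (3.58%), a count of 825 with a pseudocount of 0.1 FPKM, 867 with 0.01 FPKM and 283 among genes with a mean of at least 5 FPKM. On the log2(FPKM + 1) scale used for all these counts, at least 4-fold, 26 rose and 5 fell, the latter being Gm49394, Tnmd, Gm24452, Cxcl5 and Cxcl1. The 4 vehicle and 4 bleomycin values did not overlap in 5517 genes (44.7%). The largest increases and decreases named below were picked among such genes, and many list members by adjusted p. Their lack of overlap is therefore no separate result. Of the 332 genes that rose at least 2-fold, 61 were under 1 FPKM in every vehicle library and had passed the filter through the bleomycin libraries, which set their direction beforehand. Of the 110 that fell so far, 4 had passed through the vehicle libraries alone (Gm49394, Il6, Pappa2 and Plac1, the last named after its values were seen). In what follows a level is a mean ± SD in FPKM with n = 4, a pair of levels gives vehicle first and bleomycin second, a log2 difference is bleomycin minus vehicle on the log2(FPKM + 1) scale ± its SE, and the median over a list of genes is to be read against the median over all genes tested, 0.06. Beside the lists for which this is stated, 1 higher member each of the p53, inhibitor (TIMP and serpin), ADAM, semaphorin, IGF, interferon factor and glycolysis lists and 3 zinc finger genes had passed the filter through the bleomycin libraries alone.

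**Figure D1:**
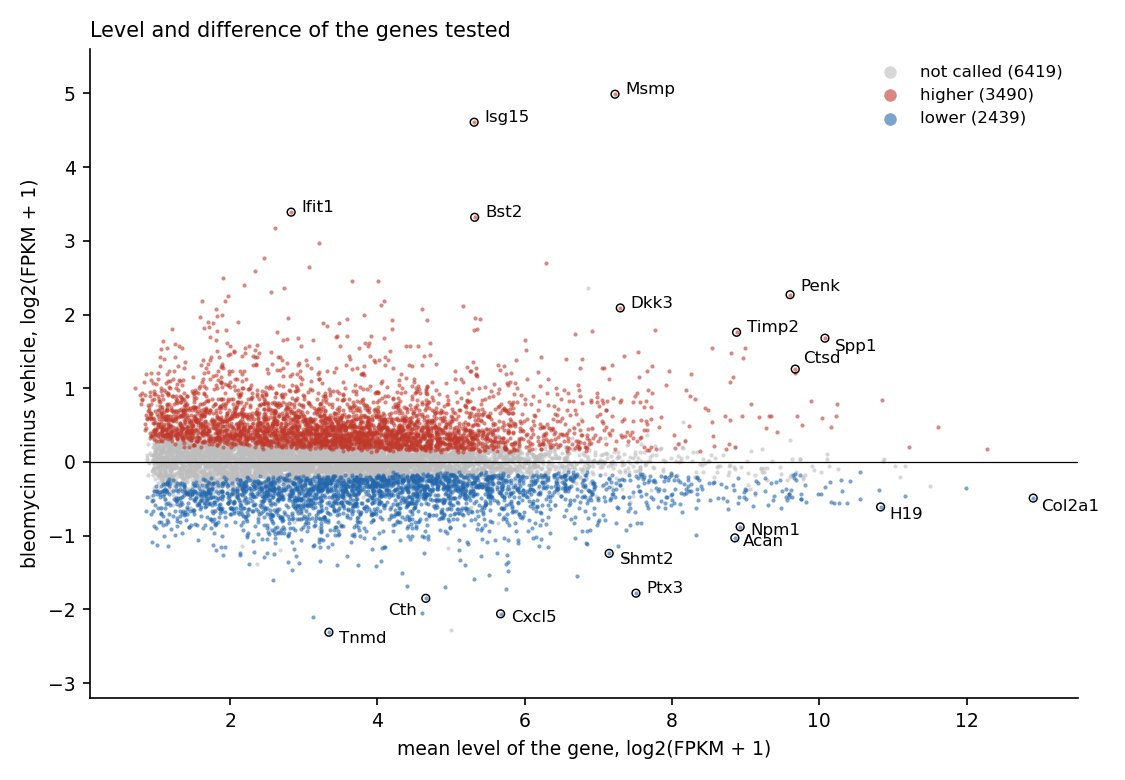
Each point is 1 of the 12348 genes tested, with its mean level over the groups on the x axis and its difference, bleomycin minus vehicle, on the y axis, both on the log2(FPKM + 1) scale; red points rose, blue points fell and grey points were not called. Msmp (4.99) and Isg15 (4.61) stand highest, Tnmd (-2.31) is the lowest labelled gene, and Gm49394 (-7.73) lies below the axis.

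The largest increase on the log2(FPKM + 1) scale was that of Msmp (ENSMUSG00000078719.2, chromosome 4, 43583216 to 43584494), which encodes microseminoprotein, a small secreted protein. It stood at 8.08, 11.7, 8.9 and 4.98 FPKM in the vehicle libraries and at 250, 315, 261 and 331 FPKM in the bleomycin libraries. The lowest bleomycin library stood far above the highest vehicle library. The log2 difference was 4.99 ± 0.20 (adjusted p = 3.44e-07). Msmp lies inside Rgp1, which is transcribed from the other strand and stood at 12.6 to 16.9 FPKM in vehicle and 18.8 to 21.1 FPKM in bleomycin, and the counting is not stated to use strand. Penk (ENSMUSG00000045573.9, chromosome 4, 4133531 to 4138819), which encodes the opioid peptide precursor proenkephalin, stood at 229, 250, 330 and 261 FPKM in vehicle and at 1303, 1190, 1334 and 1317 FPKM in bleomycin, a 4.81-fold rise of an already abundant transcript (log2 difference 2.27 ± 0.10, adjusted p = 6.31e-07). Its 4 bleomycin libraries lay close together and far above the vehicle libraries. Dkk3 (ENSMUSG00000030772.6, chromosome 7, 112116017 to 112159057), which encodes a secreted protein of the Dickkopf family, went from 60.6, 56.7, 56.4 and 60.7 FPKM to 273, 262, 239 and 241 FPKM, 4.33-fold, with little spread in either group. Outside the interferon response, H4c8, a histone H4 gene, rose from 2.91 ± 0.79 to 20.2 ± 3.35 FPKM. The libraries were made from polyadenylated RNA, so these values cover only that part of the H4c8 transcripts.

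Among the largest decreases, Tnmd (ENSMUSG00000031250.8, chromosome X, 133850980 to 133865577), which encodes tenomodulin, a membrane protein taken here as a tendon marker, stood at 14.4, 13.3, 16.6 and 19.2 FPKM in vehicle and 2.19, 2.22, 2.63 and 2.45 FPKM in bleomycin, 6.69-fold lower (log2 difference -2.31 ± 0.11, adjusted p = 8.02e-07). Fxyd6, which encodes a regulator of the sodium pump, went from 39.5, 45.2, 55.5 and 41.1 FPKM to 12.3, 12.6, 14.2 and 13.6 FPKM, and Eno3, the muscle-type enolase, from 32.6, 30.3, 31.7 and 30.1 FPKM to 10.1, 8.47, 9.09 and 8.53 FPKM. The groups did not overlap in these genes, a condition of the rule by which the largest decreases were picked. Krt7, a keratin gene, fell from 8 ± 0.532 to 2 ± 0.497 FPKM. Il1rl1, the gene of the interleukin-33 receptor, went from 72, 80.3, 72.1 and 99.8 to 27.5, 24.1, 18.2 and 26.5 FPKM. The predicted gene Gm49394 had the largest difference, with 183, 151, 446 and 185 FPKM in vehicle and 0.0249, 0.0228, 0.0594 and 0.0315 FPKM in bleomycin, but it covers Igf2 on the same strand, and Igf2 stood at 2112, 2245, 2204 and 2224 and 2566, 2360, 2660 and 2607 FPKM, so the share of reads given to each is uncertain. Doxorubicin replicate 1 had 71.9 FPKM of Gm49394 and the other doxorubicin libraries 0.0383 to 0.725 FPKM.

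**Figure D2:**
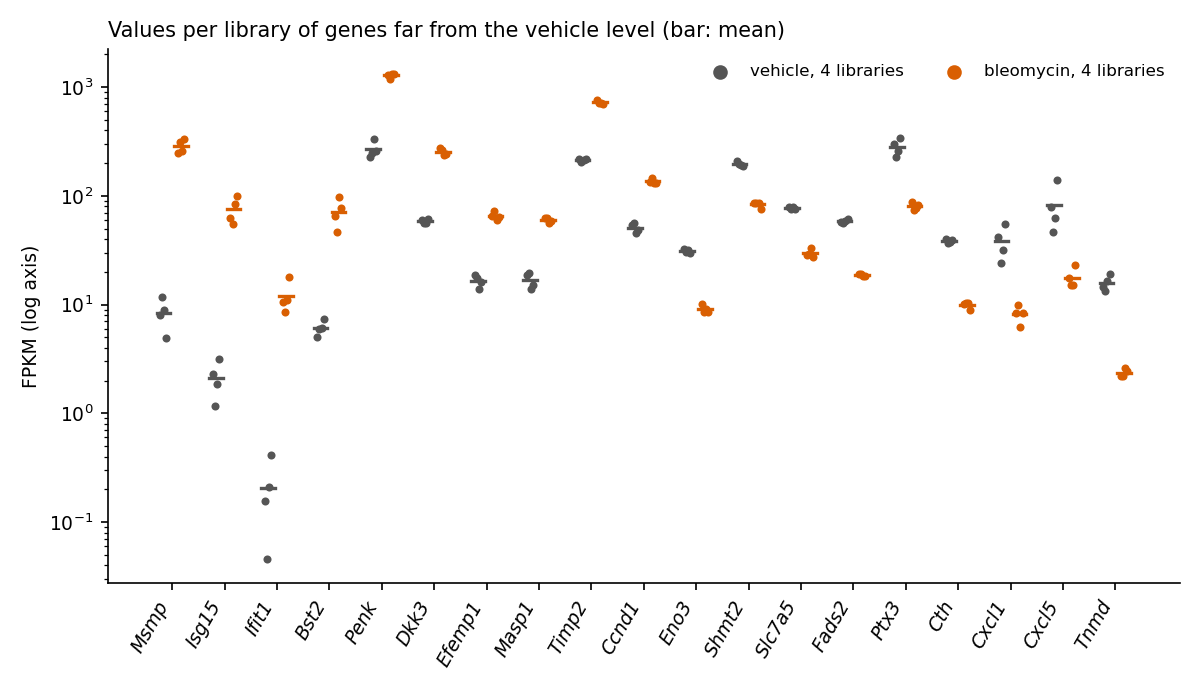
FPKM of 19 genes in each library (log axis; grey points, 4 vehicle libraries; orange points, 4 bleomycin libraries; bars, means). In all 19 genes the groups stand apart, from Msmp at 8.42 and 289 FPKM on the left to Tnmd at 15.9 and 2.37 FPKM on the right. The genes were picked for being far from the vehicle level, so this was set beforehand.

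Most p53 pathway genes rose, and genes of the division machinery fell. Of 37 p53 pathway genes, 24 rose and 4 fell (median log2 difference 0.49). Cdkn1a, the p21 gene, rose 2.48-fold from 119, 128, 123 and 118 FPKM to 302, 301, 316 and 288 FPKM. Phlda3, an inhibitor of AKT signalling, rose 2.66-fold and Dcxr, a sugar reductase gene, 2.63-fold, while Plk2, a kinase gene also induced by p53, fell from 67.8 ± 7.88 to 38.1 ± 0.77 FPKM. Among 15 CDK inhibitors, D cyclins and RB family members, 8 rose and 3 fell. Ccnd1 (ENSMUSG00000070348.5, chromosome 7, 144929931 to 144939925), the gene of cyclin D1, stood at 54, 56.6, 45.5 and 48.3 FPKM in vehicle and 135, 146, 132 and 130 FPKM in bleomycin (2.65-fold, adjusted p = 1.47e-06), and Ccnd2 rose from 86.4 ± 3.21 to 165 ± 3.07 FPKM. Both cyclins were higher in every bleomycin library than in any vehicle library. Their kinase partner Cdk4 fell from 169 ± 5.32 to 131 ± 3.05 FPKM, and Ccnd3 was not called, at 75.3, 68.8, 76.1 and 70.8 FPKM in vehicle and 79, 37.2, 89.4 and 27.5 FPKM in bleomycin.

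All 39 tested mitosis genes fell, of 40 listed, with a median log2 difference of -0.77, and so did 31 of 36 replication genes (median -0.61) and 11 of 12 genes of deoxynucleotide supply (median -0.62). The decreases were moderate, with 4 of the mitosis genes and 1 of the replication genes at 2-fold or more. Ube2c, which encodes the ubiquitin-conjugating enzyme of the anaphase-promoting complex, went from 58, 57.5, 53.3 and 57.2 FPKM to 31.8, 27.8, 25.1 and 23.7 FPKM. Mcm5, a subunit of the replicative helicase, went from 30.1, 31, 25.3 and 27 FPKM to 14, 14.1, 12.9 and 12 FPKM, and Tk1, thymidine kinase, from 43.1, 43.6, 36.2 and 31.6 FPKM to 22.9, 18.7, 17.2 and 19.7 FPKM. The bleomycin libraries were below the vehicle libraries in each of these genes and still held measurable transcript. Of 48 repair and damage-signalling genes 25 fell, among them Mre11a, a nuclease gene of break repair (10.1 ± 0.598 and 6.7 ± 0.163 FPKM), and 1 rose, Polb, the polymerase gene of base excision repair (18 ± 0.916 and 22.1 ± 1.09 FPKM). Of 20 lamina and high-mobility-group genes 13 fell and 7 were not called, with Lmnb1 at 24.4, 22.9, 19.5 and 24 FPKM in vehicle and 8.75, 8.43, 8.21 and 7.65 FPKM in bleomycin. Bulk libraries cannot tell fewer dividing cells from less of these transcripts per cell.

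The promoters of 2 of these genes are shown because division genes moved together. Sequences are the 90 bases of each RefSeq promoter (GRCm38.p6) that lie nearest the transcript start and hold the motif searched, read 5′ to 3′ on the gene's strand. Capitals mark the motifs, on either strand, with overlapping matches joined. For Ube2c (chr2:164769839-164769928, plus strand) these are TTTGAA, the core of the cell-cycle homology region, and CCAAT; for Mcm5 (chr8:75109356-75109445, plus strand) it is TTTNGCGC, a core of the E2F site.
Ube2c: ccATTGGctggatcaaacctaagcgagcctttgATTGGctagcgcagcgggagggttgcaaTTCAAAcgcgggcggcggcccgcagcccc
Mcm5: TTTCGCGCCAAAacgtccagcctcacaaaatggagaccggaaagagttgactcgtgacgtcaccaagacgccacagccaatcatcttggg
In the 250 bases before the start, 26 of 34 mitosis genes with a promoter in the RefSeq table held CCAAT (76.5%, against 34.5% of all 27025 promoters and 36.8% of those of tested genes). TTTGAA was found in 11 of the 34 (32.4%, against 16.3% of all promoters and 10.2% of those of tested genes). TTTNGCGC was found in 5 of 28 replication genes (17.9%, against 1.15% of all and 2.13% of those of tested genes). These are matches of letters only, and the table matched 9289 of the 12348 genes tested.

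Among 10 genes that act on bleomycin or on the radicals it forms, 4 rose and 1 fell. Blmh, which encodes bleomycin hydrolase, the enzyme that inactivates the drug, went from 36, 32.9, 34.9 and 34.1 FPKM to 24.6, 23.5, 23.2 and 23.7 FPKM, a fall of 1.45-fold (adjusted p = 3.31e-05). Gsta4, a glutathione transferase gene, went from 3.43, 4.41, 3.84 and 2.86 FPKM to 10.5, 9.25, 9.98 and 9.33 FPKM, and Mgst1, its microsomal relative, rose from 2.26 ± 0.381 to 9.37 ± 0.767 FPKM. Of 17 BCL2 family genes 6 rose, among them the genes Bax (123 ± 15.5 and 166 ± 9.4 FPKM) and Bcl2l11 (1.05 ± 0.279 and 2.41 ± 0.519 FPKM), whose products promote death, and 2 fell, against 28.3% higher and 19.8% lower among all genes. One of those that rose had passed the filter through the bleomycin libraries alone, and under either other scaling 5 rose and 3 fell. Of 13 tested members of the TNF ligand and receptor superfamily, 9 rose. Tnfrsf11b (ENSMUSG00000063727.3, chromosome 15, 54250619 to 54278484), which encodes osteoprotegerin, the decoy receptor that keeps RANK ligand from osteoclast precursors, stood at 201, 208, 157 and 174 FPKM in vehicle and 441, 470, 424 and 367 FPKM in bleomycin. Tnfsf11, the RANK ligand gene, was the 1 member that fell, from 3.53 ± 0.595 to 1.32 ± 0.158 FPKM.

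Interferon-stimulated genes rose in most members that could be tested. Interferons act through receptor kinases on transcription factors that bind promoters of antiviral genes. Of 45 listed effectors 33 passed the filter, 12 of them through the bleomycin libraries alone. Of the 21 that had not, 17 rose and 1 fell. Isg15 (ENSMUSG00000035692.7, chromosome 4, 156199424 to 156200818), whose protein is attached to others like ubiquitin, stood at 2.31, 1.17, 1.88 and 3.13 FPKM in vehicle and 62.3, 55.5, 85 and 98.9 FPKM in bleomycin. Bst2 (ENSMUSG00000046718.8, chromosome 8, 71534255 to 71537456), the tetherin gene, stood at 5.04, 5.93, 6.07 and 7.4 FPKM and 65.6, 46.8, 97.4 and 77.5 FPKM. In both genes bleomycin replicate 2 was the lowest of its group and still far above the vehicle libraries. The exception, Isg20, which encodes an exonuclease, fell from 26.4 ± 1.57 to 17.2 ± 0.609 FPKM. Other genes with steep rises were Lgals3bp, the galectin-3-binding protein gene (19.7 ± 3.41 and 134 ± 27 FPKM), Xaf1, a gene of a regulator of apoptosis inhibitors (1.1 ± 0.333 and 15.3 ± 1.72 FPKM), and Ifi27 (86.6 ± 7.72 and 236 ± 12.2 FPKM).

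The signalling genes upstream of these effectors rose in part. Stat2 went from 4 ± 0.867 to 12.3 ± 2.26 FPKM and Irf9 from 5.9 ± 1.69 to 18.9 ± 4.6 FPKM, while Irf7 was under 1 FPKM in each vehicle library (0.521, 0.0679, 0.517 and 0.604) and stood at 7.02, 5.78, 10.6 and 7.11 FPKM in bleomycin. Over the whole list of interferons, their receptors and IRF and STAT factors, 12 of 21 tested genes rose and 1 fell, Socs3, the feedback inhibitor (37.8 ± 2.1 and 26.6 ± 1.32 FPKM). Of 20 sensors and nucleases 12 rose, 3 of them through the filter by bleomycin alone, and 2 fell. The RNA sensor genes Ddx58 (7.96 ± 0.379 and 22.4 ± 2.25 FPKM) and Dhx58 (0.804 ± 0.144 and 5.81 ± 1.18 FPKM) were among those that rose, with Dnase2a, the lysosomal DNase gene (4.79 ± 0.659 and 11.6 ± 1.5 FPKM). Of these, Dhx58 had passed the filter through the bleomycin libraries alone. Those that fell were Samhd1, which breaks down deoxynucleotides (45.3 ± 3.31 and 27.8 ± 1.66 FPKM), and Rnaseh2b, a subunit of the nuclease that removes RNA from DNA (9.87 ± 1.32 and 5.41 ± 0.337 FPKM). For the DNA sensing branch, Sting1 stood at 10.8, 9.9, 9.09 and 8.28 FPKM in vehicle and 11.9, 11, 8.6 and 6.67 FPKM in bleomycin and was not called, and Cgas was under the filter, at 0.718 to 0.835 and 0.675 to 0.886 FPKM.

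Class I antigen presentation genes rose as well. Of 21 genes of MHC class I and peptide loading, 3 had passed through the bleomycin libraries alone, and of the other 18 14 rose and the rest were not called. B2m (ENSMUSG00000060802.8, chromosome 2, 122147686 to 122153083), the light chain of all class I molecules, stood at 176, 185, 196 and 195 FPKM in vehicle and 492, 465, 672 and 587 FPKM in bleomycin. H2-D1, a classical heavy chain, stood at 98.6, 97.5, 101 and 90 FPKM and 296, 329, 412 and 317 FPKM. Bleomycin replicate 3 was the highest library of its group for both, and no library overlapped. H2-T23 rose from 5.2 ± 1.14 to 27 ± 3.76 FPKM and the peptide transporter gene Tap2 from 1.81 ± 0.262 to 8.6 ± 1.04 FPKM. Class I heavy chain genes are near-identical copies in part, so the split of reads between them is uncertain. The guanylate-binding and immunity-related GTPases had 5 of 16 members tested, all higher, 3 of them through the filter by bleomycin alone; Irgm1 rose from 3.69 ± 0.322 to 16.5 ± 3.32 FPKM.

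Promoters of 5 of these genes are shown because they hold GAAA, any 2 bases and GAAA again, the core of the interferon-stimulated response element, marked in capitals on either strand. The regions are chr4:156200819-156200908, minus strand (Isg15), chr19:34640785-34640874, plus strand (Ifit1), chr8:71537513-71537602, minus strand (Bst2), chr5:120907526-120907615, minus strand (Oas1a) and chr2:122147548-122147637, plus strand (B2m), all GRCm38.p6.
Isg15: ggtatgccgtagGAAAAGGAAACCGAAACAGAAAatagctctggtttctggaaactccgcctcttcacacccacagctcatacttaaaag
Ifit1: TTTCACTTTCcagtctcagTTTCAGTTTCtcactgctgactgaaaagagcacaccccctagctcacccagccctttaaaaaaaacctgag
Bst2: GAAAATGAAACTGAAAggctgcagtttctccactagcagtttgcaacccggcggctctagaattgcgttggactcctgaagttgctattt
Oas1a: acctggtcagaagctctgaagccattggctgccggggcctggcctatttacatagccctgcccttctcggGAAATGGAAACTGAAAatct
B2m: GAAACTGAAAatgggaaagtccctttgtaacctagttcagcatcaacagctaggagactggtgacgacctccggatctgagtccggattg
The motif was found in 8 of 25 tested interferon-stimulated effectors with a RefSeq promoter (32.0%) and in 3 of 17 class I genes (17.6%). It was found in 3.05% of all promoters and 2.43% of those of tested genes. Members that had passed the filter through the bleomycin libraries alone, 12 of 33 effectors and 3 of 21 class I genes, were not set apart in these shares. Ifit1, an RNA-binding antiviral gene, stood at 0.156, 0.046, 0.21 and 0.415 FPKM in vehicle and 10.6, 8.47, 11.1 and 17.8 FPKM in bleomycin, and Oas1a, an oligoadenylate synthetase gene, rose from 0.079 ± 0.0918 to 5.39 ± 2.21 FPKM. Both had passed the filter through the bleomycin libraries.

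Complement genes rose, whereas most chemokine and acute-phase genes fell. Of 19 tested complement components and regulators, 17 rose and 2 were not called, and 1 had passed through the bleomycin libraries alone. Masp1 (ENSMUSG00000022887.9, chromosome 16, 23449417 to 23520815), a protease gene that starts the lectin pathway, stood at 18.9, 19.4, 14 and 15.1 FPKM in vehicle and 63, 62.9, 56.3 and 58.8 FPKM in bleomycin (3.57-fold). C1qtnf1, a gene of the C1q and TNF related family, went from 12.2, 12.3, 14.8 and 13.1 FPKM to 38, 36.6, 37.2 and 37.3 FPKM, and Colec12, a collectin gene, rose from 21.7 ± 0.879 to 35.5 ± 1.8 FPKM. In each of these the groups stood apart. Cd55, a membrane gene that shields cells from complement, rose from 2.87 ± 0.363 to 8.8 ± 0.549 FPKM. C3, the component on which the pathways meet, was not called, at 6.83, 5.03, 6.39 and 8.14 and 5.13, 5.13, 5.07 and 6.57 FPKM, but was lower without vehicle replicate 2 (log2 difference -0.33, limma adjusted p = 0.0435).

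Of 12 tested chemokines 7 fell and 4 rose, 2 of the latter through the filter by bleomycin alone. Cxcl1 (ENSMUSG00000029380.11, chromosome 5, 90891241 to 90893115), which draws neutrophils, stood at 42.3, 24.3, 31.8 and 55.5 FPKM in vehicle and 8.4, 9.89, 6.18 and 8.44 FPKM in bleomycin. Cxcl5, its neighbour on the chromosome, stood at 79.7, 47, 62.8 and 140 FPKM and 17.5, 15.1, 15.1 and 23 FPKM. Vehicle replicate 4 was the highest library for both, and without any 1 library both stayed lower. Ccl7 fell from 67.6 ± 18.9 to 22.2 ± 2.42 FPKM. Among those that rose were Cx3cl1, the membrane-bound fractalkine gene (4.65 ± 0.688 and 15.8 ± 1.59 FPKM), and Ccl5, a gene also induced by interferon, which was under 1 FPKM in each vehicle library (0.444 ± 0.3 and 4.13 ± 0.988 FPKM). In the acute-phase list 5 of 8 fell: Ptx3, pentraxin 3, went from 300, 227, 258 and 344 FPKM to 88.3, 74.2, 76.8 and 83.2 FPKM, Saa3 from 115, 96.8, 155 and 256 FPKM to 41.2, 35.7, 54.1 and 71.4 FPKM, and Lcn2 from 78.4 ± 37.5 to 27.2 ± 3.89 FPKM. The 2 members that rose did not pass under either other scaling. Among interleukins 6 of 12 rose, with Il34, which feeds the CSF1 receptor, at 2.93 ± 0.253 and 6.91 ± 0.476 FPKM, and 1 fell, Il6 itself (1.88, 1.38, 1.61 and 3.43 FPKM in vehicle, 0.189, 0.558, 0.33 and 0.377 FPKM in bleomycin). The NF-kB subunits and feedback genes were near the background of all genes, with 5 higher and 3 lower of 17, and 3 higher and 4 lower under either other scaling. Nfkbiz (14.5 ± 2.7 and 9.55 ± 1.39 FPKM) and Bcl3 (19.3 ± 4.01 and 11.6 ± 0.838 FPKM), both nuclear inhibitor-family genes, were among the lower ones.

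**Figure D3:**
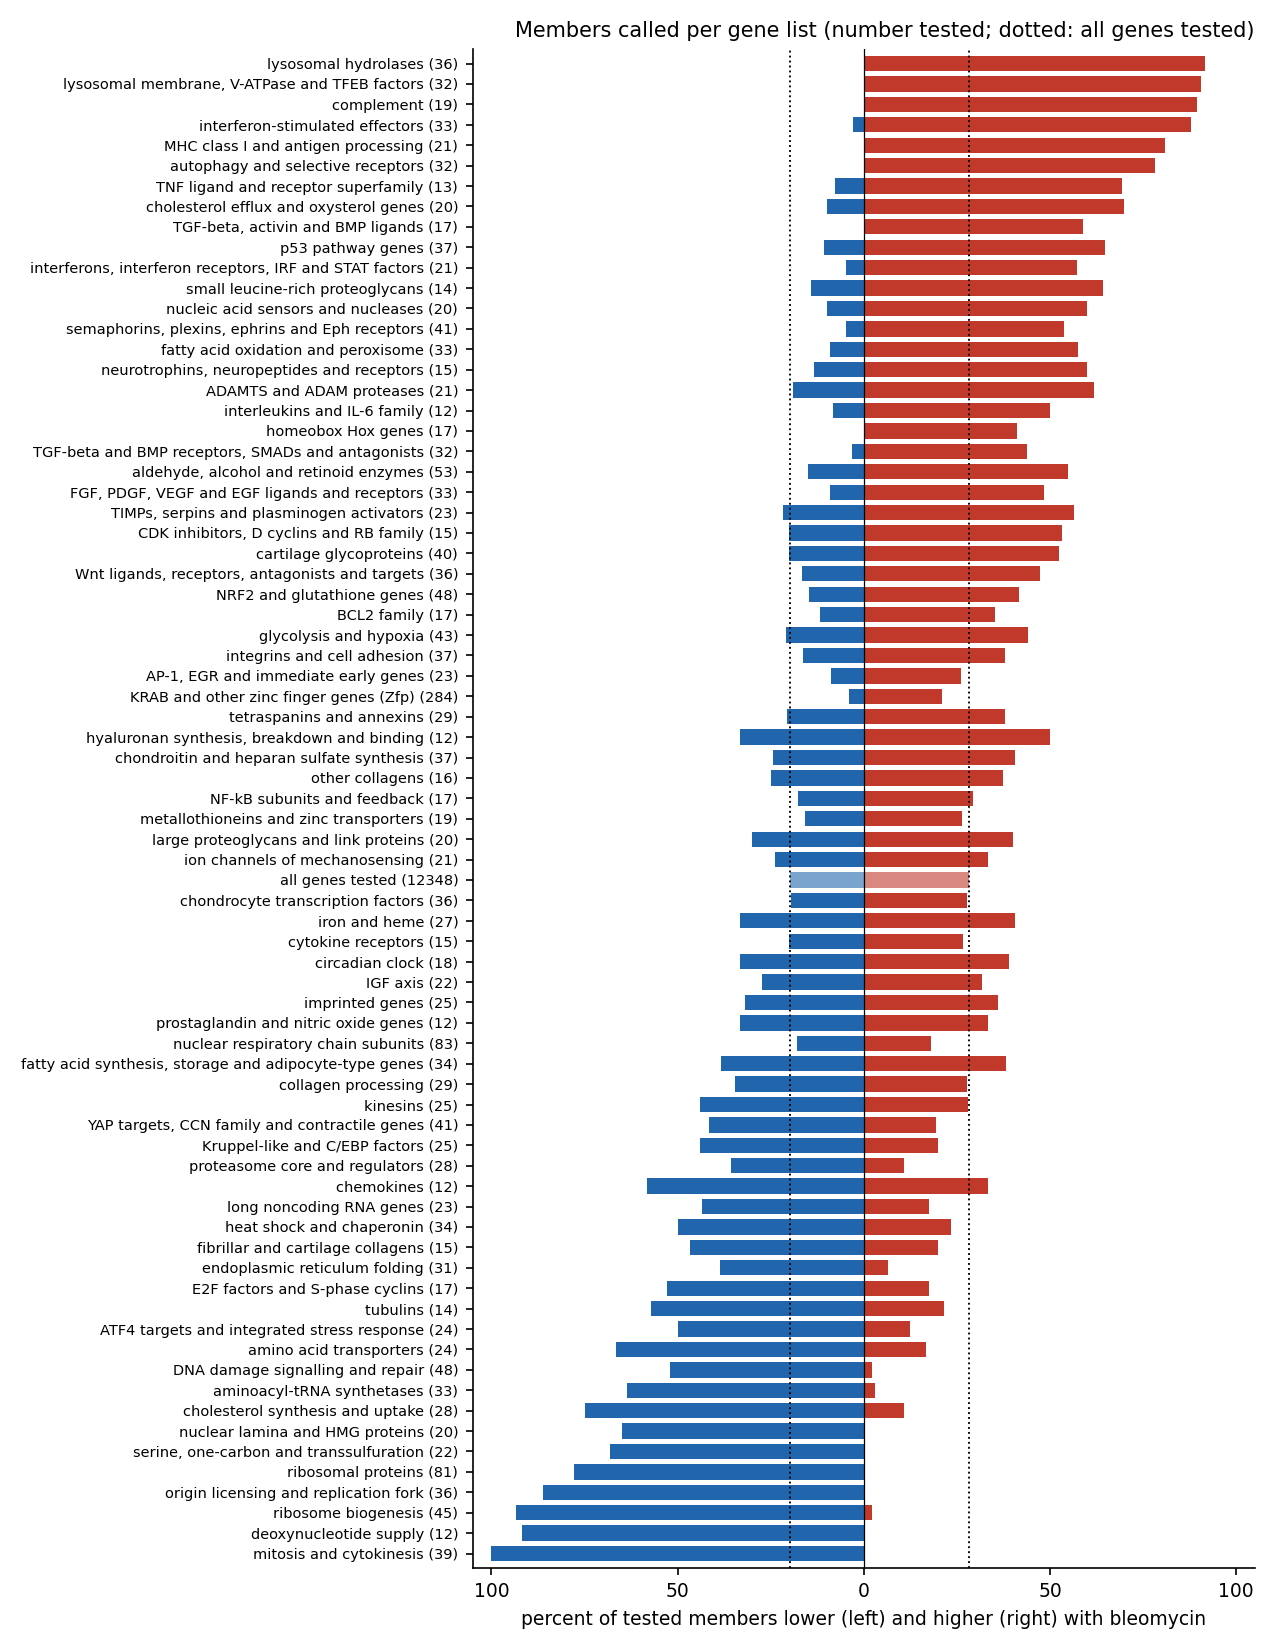
For each list with at least 12 tested genes, the bars give the percent of tested members that fell (blue, left) and rose (red, right); the number tested is in brackets, and the dotted lines mark all genes tested, 19.8% lower and 28.3% higher. Lysosomal, complement and interferon-stimulated genes are at the top, and mitosis, deoxynucleotide and ribosome biogenesis genes at the bottom. Bars include members that had passed the filter through the bleomycin libraries alone, which set their direction beforehand. Among these were 12 of the 33 interferon-stimulated effectors and 1 of the 19 complement genes. Of the other 21 effectors 17 rose and 1 fell.

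Genes that build ribosomes and supply amino acids fell together. Of 81 cytosolic ribosomal protein genes, 63 fell and 18 were not called (median log2 difference -0.39), by a small amount each. Rps3 stood at 1594, 1627, 1580 and 1533 FPKM in vehicle and 1086, 1096, 1086 and 1030 FPKM in bleomycin. Rpl22l1, a paralog in the set, was the steepest at 426 ± 29.6 and 213 ± 6.92 FPKM. Of 45 ribosome biogenesis genes 42 fell (median -0.50). Npm1 (ENSMUSG00000057113.13, chromosome 11, 33152287 to 33163206), the nucleolar chaperone nucleophosmin, stood at 692, 628, 552 and 644 FPKM in vehicle and 338, 343, 347 and 334 FPKM in bleomycin, and Fbl, the rRNA methyltransferase fibrillarin, fell from 54.6 ± 2.81 to 28.8 ± 1.52 FPKM. The 4 bleomycin libraries of Npm1 spanned a narrow range that all vehicle libraries exceeded. One gene of the list rose, a call that ended with median-of-ratios scaling. Myc, the transcription factor known to drive ribosome genes, stood at 26.6, 23.4, 21.1 and 21.9 FPKM and 13.2, 12.3, 12.1 and 9.18 FPKM, 1.98-fold lower.

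Small nucleolar RNAs, which guide the modification of ribosomal RNA, are cut from the introns of host genes. Of 86 snoRNA entries that passed the filter, 43 fell and 43 were not called, with a median log2 difference of -0.56. Of the 86, 78 lay inside a tested gene on the same strand, in 53 hosts, of which 37 fell. Of the 41 lower entries with such a host, 26 had a host that fell and 15 a host that was not called, among them Gas5 and 2410006H16Rik with 3 each. Among the entries not called that had such a host, a larger share had a host that fell. Gm24452, inside Snhg1, stood at 17, 12.7, 12.5 and 8.31 FPKM in vehicle and 4.83, 5.06, 1.47 and 0.0194 FPKM in bleomycin, while Snhg1 went from 108 ± 3.61 to 76.2 ± 2.95 FPKM. The libraries were made from polyadenylated RNA, which mature snoRNAs lack, and FPKM of such short genes rest on few fragments.

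Amino acid supply fell further. Of 22 genes of serine, one-carbon and transsulfuration metabolism, 15 fell and 7 were not called (median log2 difference -0.74). Cth (ENSMUSG00000028179.12, chromosome 3, 157894248 to 157925077), which makes cysteine from cystathionine, stood at 40.3, 36.5, 37.5 and 39.6 FPKM in vehicle and 10.1, 10.3, 10.4 and 8.95 FPKM in bleomycin, 3.87-fold lower (adjusted p = 1.37e-07). Shmt2 (ENSMUSG00000025403.5, chromosome 10, 127517123 to 127522444), which splits serine in mitochondria, stood at 211, 198, 192 and 190 FPKM and 86.5, 86.3, 85.2 and 75.5 FPKM. Phgdh, the first enzyme of serine synthesis, fell from 211 ± 4.66 to 95.7 ± 7.32 FPKM, and Aldh1l2, of mitochondrial folate metabolism, from 79.1 ± 2.62 to 27.8 ± 1.26 FPKM. In these 4 genes all bleomycin libraries were below all vehicle libraries. Of 24 amino acid transporters 16 fell and 4 rose (median -0.59). Slc7a5 (ENSMUSG00000040010.10, chromosome 8, 121881150 to 121907694), the importer of large neutral amino acids, stood at 79.3, 75.6, 78.4 and 76.3 FPKM in vehicle and 28.5, 29.5, 33.4 and 27.5 FPKM in bleomycin, and Slc1a5, the glutamine importer, fell from 67.9 ± 4.61 to 28.4 ± 3.91 FPKM. The taurine transporter gene Slc6a6 (15.8 ± 1.06 and 22.7 ± 1.09 FPKM) and Slc43a2 (1.29 ± 0.221 and 2.35 ± 0.236 FPKM) were among those that rose. Of 33 aminoacyl-tRNA synthetases 21 fell, with Gars at 217 ± 12.9 and 114 ± 6.42 FPKM and Lars at 83.5 ± 1.31 and 48 ± 3.39 FPKM, and 1 rose, a call that ended under both other scalings. Atf4, the factor that induces many of these genes, went from 223, 272, 223 and 266 FPKM to 135, 153, 203 and 154 FPKM, and of 24 ATF4 targets and stress regulators 12 fell and 3 rose. Trib3 fell from 76.8 ± 5.37 to 39.5 ± 2.65 FPKM, and Ddit3, the CHOP gene, rose from 62.8 ± 2.23 to 79.6 ± 6.01 FPKM.

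The promoter of Asns, asparagine synthetase (144 ± 9.62 and 74.3 ± 2.03 FPKM), is shown because it holds TGATGNAA, a core of the amino acid response element to which ATF4 binds (capitals; chr6:7693210-7693299, minus strand, GRCm38.p6).
Asns: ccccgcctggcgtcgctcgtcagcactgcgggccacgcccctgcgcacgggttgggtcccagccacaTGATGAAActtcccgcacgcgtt
Of promoters in the RefSeq table, 6 of 22 ATF4-list genes (27.3%), 3 of 23 synthetases (13%), 2 of 17 transporters (11.8%) and 1 of 18 serine and one-carbon genes (5.56%) held it in the 250 bases before the start, against 3.53% of all promoters and 1.87% of those of tested genes.

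**Figure D4:**
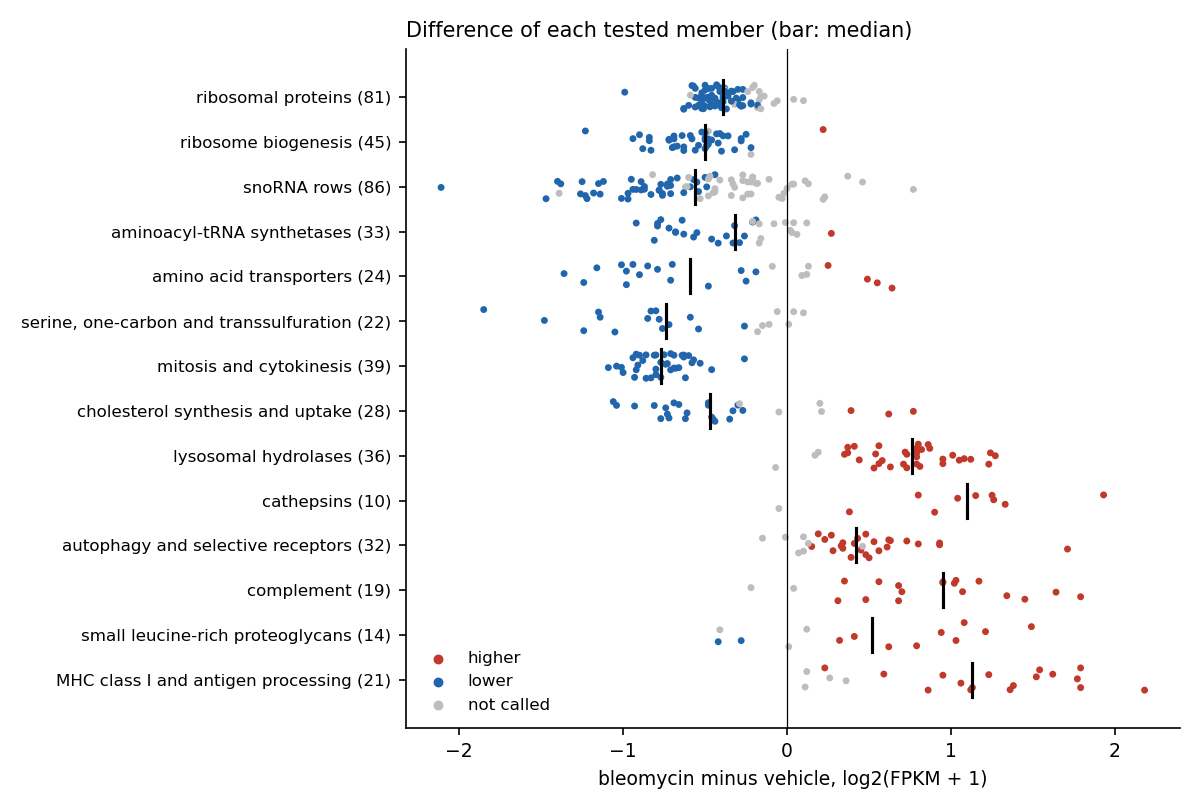
Each point is a tested member of the list named on the left (number tested in brackets), at its difference on the log2(FPKM + 1) scale, bleomycin minus vehicle; red points rose, blue points fell, grey points were not called, and bars are medians. Ribosomal proteins lie in a narrow band around -0.39, serine and one-carbon genes reach down to -1.85 (Cth), and lysosomal hydrolases center on 0.76.

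Lysosomal genes rose across the organelle. Of 36 hydrolases 33 rose (median log2 difference 0.76), of 32 membrane, proton pump and TFEB-family genes 29 (median 0.51), and of 32 autophagy genes 25 (median 0.42), with the rest of each list not called. Among 10 cathepsins 9 rose. Ctsf stood at 9.87, 9.72, 10.1 and 8.79 FPKM in vehicle and 38.7, 40.9, 41.3 and 37 FPKM in bleomycin, and Ctsd at 480, 504, 490 and 447 FPKM and 1095, 1229, 1154 and 1124 FPKM. Neither overlapped, and both groups of Ctsd were tight. Npc2, which carries cholesterol out of lysosomes, went from 47.4, 42.8, 48.7 and 51.6 FPKM to 96.9, 95.8, 97 and 104 FPKM, and Lamp1, the main membrane protein, went from 272 ± 1.84 to 444 ± 15.1 FPKM. Of the factors known to induce the set, Mitf rose from 5.34 ± 0.707 to 8.72 ± 0.55 FPKM, and Tfeb (4.35 ± 0.796 and 5.1 ± 0.835 FPKM) and Tfe3 (13.7 ± 1.38 and 14.8 ± 3.3 FPKM) were not called. Gabarapl1, an autophagosome gene, rose from 33.4 ± 1.74 to 64.6 ± 4.43 FPKM, and Trp53inp1, shared by the p53 and autophagy lists, from 6.04 ± 1.11 to 22.1 ± 4.04 FPKM. Macrophages are rich in lysosomes, so their markers are given here: 4 of 10 passed the filter and 3 rose, Cd68, Lyz2 and Cd14. Cd68, itself a lysosomal gene, stood at 1.29, 1.28, 2.06 and 1.02 FPKM in vehicle and 3.64, 4.09, 5.25 and 5.11 FPKM in bleomycin. The summed level of the 10 was 9.05 to 11.1 FPKM in vehicle and 16.3 to 18 FPKM in bleomycin. Of the markers under the filter, Adgre1, Fcgr1, Itgam and Ptprc were under 0.1 FPKM in all 8 libraries. The part of such cells in the lysosomal results was not tested.

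Promoters of Ctsd (chr7:142387836-142387925, minus strand) and Ctsf (chr19:4855075-4855164, plus strand) are shown because they hold CACGTG, the palindromic core to which TFEB-family factors bind (capitals, GRCm38.p6).
Ctsd: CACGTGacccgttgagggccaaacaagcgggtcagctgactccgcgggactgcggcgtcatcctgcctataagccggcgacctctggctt
Ctsf: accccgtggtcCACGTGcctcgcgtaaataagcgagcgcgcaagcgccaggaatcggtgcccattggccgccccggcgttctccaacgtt
It was found in 3 of 8 cathepsins (37.5%), 6 of 28 hydrolases (21.4%) and 4 of 26 membrane and pump genes (15.4%) with a RefSeq promoter. It was found in 6.04% of all promoters, 8.67% of those of tested genes and 2.56% of those of ribosome biogenesis genes (1 of 39).

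Genes of cholesterol synthesis fell and genes of its efflux rose. Of 28 genes of cholesterol synthesis and uptake 21 fell and 3 rose (median log2 difference -0.47), with Srebf2, the factor that induces the set, at 24.4 ± 1.48 and 17.2 ± 1.27 FPKM. Insig2, which holds SREBP back in the endoplasmic reticulum, rose from 26.2 ± 2.37 to 45.1 ± 0.951 FPKM. TCACNCCAC, searched as a core of the sterol element, was found in 1 of 21 RefSeq promoters of the synthesis and uptake genes (4.76%). It was found in 1.04% of all promoters and 0.958% of those of tested genes. Of 20 efflux genes 14 rose, 2 of them through the filter by bleomycin alone, and 2 fell, with Abca1 at 2.88, 2.93, 2.83 and 4.52 FPKM in vehicle and 5.81, 6.01, 6.21 and 6.67 FPKM in bleomycin and Apoe at 1.57 ± 0.35 and 6.74 ± 1.05 FPKM. The desaturase gene Fads2 (ENSMUSG00000024665.8, chromosome 19, 10062765 to 10101746) stood at 58.1, 56.8, 58.5 and 61.4 FPKM in vehicle and 19.3, 19.3, 18.2 and 18.5 FPKM in bleomycin, and Fads1 fell from 59.2 ± 2.27 to 23.8 ± 1.34 FPKM. Of 33 genes of fatty acid oxidation 19 rose, a count of 12 with median-of-ratios and 11 with quantile scaling, and 3 fell under each. Cpt1a, which brings fatty acids into mitochondria, rose from 5.38 ± 0.481 to 13.9 ± 0.761 FPKM. Of 10 adipocyte markers 7 passed the filter and rose, 3 of them through the bleomycin libraries alone, and their summed level was 38 to 43.2 FPKM in vehicle and 77.1 to 88.1 FPKM in bleomycin. Most of that sum was Fabp4 (29.1, 27.5, 34.5 and 33.9 and 54.8, 57.9, 61.7 and 58.8 FPKM). Adipoq, adiponectin, which had passed through the bleomycin libraries alone, stood at 0.284, 0.047, 0 and 0.0864 and 3.13, 3.36, 5.52 and 4.21 FPKM, while Lep and Retn were under 0.1 FPKM in all 8 libraries. The part of such cells in the lipid results was not tested.

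Iron genes moved in both directions. Tfrc, the transferrin receptor, fell from 39.9 ± 3.48 to 24.1 ± 1.02 FPKM, Slc39a14, a metal importer, from 81 ± 5.47 to 37.3 ± 4.1 FPKM, and Steap1 from 60.1 ± 2.12 to 28 ± 1.52 FPKM, whereas Steap3, an endosomal iron reductase gene, rose from 40.7 ± 2.46 to 71 ± 2.1 FPKM. Over the list 11 of 27 rose and 9 fell, and 10 each with median-of-ratios scaling. Of 48 NRF2 and glutathione genes 20 rose and 7 fell; Nfe2l2, the NRF2 gene, was not called (40.5 ± 1.74 and 39.7 ± 0.405 FPKM). Sod3, extracellular superoxide dismutase, rose from 42.9 ± 3.29 to 68.4 ± 3.08 FPKM, and Slc7a11, the cystine importer, fell from 2.34 ± 0.207 to 0.933 ± 0.143 FPKM. Among 53 aldehyde, alcohol and retinoid enzymes 29 rose, 5 of them through the filter by bleomycin alone, and 8 fell. Ephx1, the microsomal epoxide hydrolase, rose 3.49-fold to 186 ± 5.54 FPKM, and Aldh1a1, which makes retinoic acid, went from 0.122, 0.377, 0.601 and 0.435 FPKM to 4.2, 4.31, 4.36 and 3.61 FPKM, having passed the filter through the bleomycin libraries.

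Matrix genes moved in both directions. Chondrocyte markers had 8 lower and 1 higher of 14, and of 15 fibrillar and cartilage collagens 7 fell and 3 rose. Col2a1 stood at 8163, 9054, 10625 and 8040 FPKM in vehicle and 5599, 6460, 7294 and 6071 FPKM in bleomycin, Col11a1 fell from 1004 ± 77.3 to 710 ± 45.9 FPKM and Col10a1, a collagen of hypertrophic cartilage, from 54.2 ± 4.02 to 31.4 ± 2.07 FPKM, while Col3a1 rose from 458 ± 25.8 to 699 ± 12.7 FPKM and Col1a1 was not called (1092 ± 74.1 and 993 ± 36.1 FPKM), although it was lower under either other scaling (log2 difference -0.20 and -0.13). The call of Col2a1 ended with quantile normalization, which sets the highest values of all libraries equal (log2 difference 0.00). Acan stood at 560, 627, 722 and 570 FPKM and 273, 302, 344 and 294 FPKM, and Hapln1, the link protein that ties aggrecan to hyaluronan, fell from 192 ± 17.4 to 108 ± 17.2 FPKM. Small leucine-rich proteoglycans went the other way: 9 of 14 rose and 2 fell (median log2 difference 0.52). Prelp rose from 97.2 ± 12.8 to 273 ± 15.8 FPKM, Lum from 283 ± 32.5 to 597 ± 53.7 FPKM, and Dcn, decorin, stood at 470, 444, 500 and 554 FPKM in vehicle and 1125, 1042, 1142 and 1223 FPKM in bleomycin. Epyc and Podnl1 were the ones that fell.

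Of 40 glycoproteins of the matrix 21 rose and 8 fell. Efemp1 (ENSMUSG00000020467.15, chromosome 11, 28853204 to 28926743), a fibulin gene, stood at 18.6, 17.5, 13.8 and 16 FPKM in vehicle and 65.9, 73.3, 60.2 and 63.6 FPKM in bleomycin, Ecm1 rose from 77.3 ± 2 to 190 ± 18 FPKM, and Comp, the cartilage oligomeric matrix protein gene, from 934 ± 143 to 1450 ± 214 FPKM. Thbs4, of the same thrombospondin family as Comp, went from 26.7, 23.5, 30.3 and 35.2 FPKM to 8.89, 8.33, 10.5 and 10 FPKM, and Matn3, matrilin 3, fell from 94.5 ± 13.8 to 51.5 ± 5.8 FPKM. Prg4, the lubricin gene, rose from 21.1 ± 2.52 to 55.6 ± 4.03 FPKM. Papss2, which makes the sulfate donor for chondroitin sulfate, stood at 150, 153, 172 and 144 FPKM and 67.9, 70.1, 76.2 and 71.4 FPKM, 2.17-fold lower, although over the list of chondroitin and heparan sulfate synthesis 15 of 37 rose and 9 fell. Of 12 hyaluronan genes 6 rose and 4 fell. The breakdown gene Hyal1 rose from 1.16 ± 0.0966 to 4.29 ± 0.946 FPKM, Hyal2 from 7.47 ± 1.63 to 12.8 ± 2.45 FPKM and Cemip from 3.66 ± 0.459 to 6.38 ± 0.292 FPKM, and the synthase gene Has2 fell from 9.31 ± 1.13 to 6.62 ± 0.283 FPKM and Tnfaip6, a hyaluronan-binding gene, from 4.29 ± 0.48 to 1.36 ± 0.179 FPKM. Only the bleomycin cells are known to have received hyaluronidase, so the drug and the enzyme cannot be told apart here.

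Of 9 tested matrix metalloproteinases 7 rose and 2 were not called (median log2 difference 0.82), with Mmp2 at 62.8 ± 5.44 and 115 ± 9.87 FPKM, Mmp14, the membrane enzyme that activates it, at 85.3 ± 0.497 and 152 ± 2.57 FPKM, and Mmp19 at 3.93 ± 0.449 and 9.76 ± 0.477 FPKM. Of 21 ADAM and ADAMTS genes 13 rose, among them Adam8 (2.79 ± 0.265 and 8.01 ± 0.826 FPKM) and Adam15 (32.7 ± 1.03 and 65.9 ± 2.67 FPKM), and 4 fell, among them Adam12 (3.81, 3.62, 3.92 and 4.19 FPKM in vehicle, 1.19, 0.897, 1.21 and 1.19 FPKM in bleomycin) and Adamts1. Of 23 TIMPs, serpins and plasminogen activators 13 rose and 5 fell. Timp2 (ENSMUSG00000017466.9, chromosome 11, 118301069 to 118355740) stood at 217, 206, 213 and 219 FPKM in vehicle and 754, 719, 720 and 702 FPKM in bleomycin (3.39-fold, adjusted p = 7.19e-08), and Timp1 rose from 650 ± 20.7 to 1000 ± 26.8 FPKM. The libraries of Timp2 lay close together within each group and far apart between groups. Plat, tissue plasminogen activator, rose from 6.63 ± 0.685 to 28.1 ± 2.16 FPKM, while Plaur, the receptor of the urokinase type, fell from 42.8 ± 3.03 to 29 ± 2.44 FPKM, and Serpinh1, the collagen chaperone HSP47, from 758 ± 78.7 to 507 ± 67.4 FPKM.

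In the TGF-beta, FGF and Wnt lists more genes rose than fell, as among all genes tested (28.3% and 19.8%). With quantile normalization 12 genes of the FGF list rose and 6 fell, and 15 and 7 of the Wnt list. Under that scaling 9 TGF-beta family ligands rose and 1 fell, and 14 and 2 of the receptors, SMADs and antagonists. Of 17 ligands of the TGF-beta family 10 rose, 1 of them through the filter by bleomycin alone, and 7 were not called, with Gdf10 at 4.32, 4.06, 4.5 and 3.54 FPKM in vehicle and 14.9, 14.5, 18.6 and 14.7 FPKM in bleomycin, Inhbb, an activin subunit, at 1.42 ± 0.222 and 5.74 ± 0.388 FPKM and Tgfb1 at 8.15 ± 0.244 and 14.3 ± 0.872 FPKM. Among receptors, SMADs and antagonists 14 of 32 rose, with the BMP antagonist Grem1 at 11.5, 13.4, 10.8 and 15.7 and 30.6, 29.9, 29.9 and 44.2 FPKM, and 1 fell, the antagonist Nog (6.28 ± 0.478 and 4.16 ± 0.74 FPKM). Of FGF, PDGF, VEGF and EGF genes 16 of 33 rose, 2 of them through the filter by bleomycin alone, and 3 fell, with Pdgfc at 8.79 ± 1.29 and 24.7 ± 3.25 FPKM, the receptor gene Fgfr1 at 47.1 ± 1.82 and 89 ± 6.92 FPKM and, in the other direction, Fgf21 at 9.59 ± 2.47 and 3.98 ± 0.116 FPKM. In the Wnt list 17 of 36 rose, 2 of them likewise through bleomycin alone. Besides Dkk3 these held Wif1, an extracellular Wnt inhibitor (4 ± 0.606 and 11.2 ± 1.62 FPKM), and the receptors Fzd1 (12.6 ± 0.589 and 19.4 ± 0.302 FPKM) and Fzd9 (15.8 ± 2.72 and 33.1 ± 2.51 FPKM), while the inhibitor Sfrp1 (6.36 ± 0.663 and 3.45 ± 0.433 FPKM) and the ligand Wnt10b (3.04 ± 0.764 and 1.15 ± 0.281 FPKM) fell. Of 22 genes of the IGF axis 7 rose and 6 fell, near the share of all genes (28.3% and 19.8%), and 5 rose and 6 fell with median-of-ratios scaling. Igfbp3 rose from 42 ± 4.25 to 79.5 ± 6.67 FPKM and Stc2, which blocks the protease that frees IGF, fell from 26.5 ± 1.48 to 13.9 ± 1.19 FPKM.

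More guidance genes rose than fell, as among all genes tested (28.3% and 19.8%). Of 41 semaphorins, plexins, ephrins and Eph receptors 22 rose and 2 fell. Ephb6, an Eph receptor without kinase activity, stood at 6.26, 6.03, 6.39 and 6.45 FPKM in vehicle and 21.4, 23.6, 22.3 and 18 FPKM in bleomycin (3.39-fold), Sema3b at 7.46 ± 0.917 and 18.5 ± 1.59 FPKM, and Sema3c at 36.7 ± 3.62 and 77.8 ± 5.29 FPKM. Bdnf, a neurotrophin gene, rose from 1.56 ± 0.332 to 3.58 ± 0.317 FPKM, while Ptn, pleiotrophin, fell from 10.3 ± 1.21 to 6 ± 0.293 FPKM. Notch3 went from 0.998, 0.643, 0.578 and 0.768 FPKM to 3.42, 3.44, 2.74 and 3.68 FPKM, having passed the filter through the bleomycin libraries, and Ptch1, a hedgehog receptor and target, fell from 9.34 ± 1.19 to 6.16 ± 0.511 FPKM.

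More contractile and tubulin genes fell than rose. In the list of YAP targets, CCN and contractile genes 17 of 41 fell and 8 rose. Acta2, smooth muscle actin, stood at 268, 264, 182 and 220 FPKM in vehicle and 107, 92, 86.7 and 88.1 FPKM in bleomycin, and Myl9, a myosin light chain, fell from 54.4 ± 7.33 to 28.2 ± 2 FPKM. Ccn3 and Ccn5, matricellular genes, were among the exceptions, Ccn3 at 29.9 ± 1.84 and 97 ± 8.66 FPKM and Ccn5 at 103 ± 12 and 189 ± 11.8 FPKM. Of 14 tubulins 8 fell, among them Tubb2b (45.6 ± 4.01 and 24.7 ± 1.95 FPKM), and 3 rose, among them Tuba4a (3.03 ± 0.368 and 6.02 ± 0.361 FPKM). Of adhesion genes Icam1 rose from 30.2 ± 1.78 to 55.8 ± 2.26 FPKM and Itga5, the fibronectin receptor subunit, fell from 51.7 ± 1.86 to 37.8 ± 1.45 FPKM. Channel genes were mixed, with the water channel Aqp1 at 16.7 ± 2.54 and 32.3 ± 1.73 FPKM and the osmosensing channel Trpv4 at 50.1 ± 3.48 and 37.6 ± 1.71 FPKM.

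Among regulators, Sox9, which maintains the chondrocyte fate, fell from 57.3 ± 1.62 to 44.3 ± 2.09 FPKM, while Sox4, of the same gene family, rose from 12.7 ± 1.31 to 25.2 ± 2.27 FPKM, and over the chondrocyte factors 10 of 36 rose and 7 fell, near the share of all genes, and 8 rose and 9 fell with quantile normalization. Of 17 tested Hox genes 7 rose and 10 were not called, with Hoxc6 at 5.94 ± 0.668 and 10.5 ± 0.818 FPKM. Clock genes split: Dbp, an output gene of the clock, stood at 3.49, 3.91, 3.56 and 2.43 FPKM in vehicle and 12.1, 10.2, 8.46 and 9.2 FPKM in bleomycin and Nr1d1 at 4.1 ± 0.11 and 8.99 ± 0.432 FPKM, while Cry1, a repressor of the clock, fell from 7.09 ± 0.664 to 3.81 ± 0.25 FPKM and Npas2 from 4.91 ± 0.892 to 2.57 ± 0.226 FPKM. The core genes Arntl and Clock were not called. The hour of harvest is not given, so its part in these values was not tested. Foxo3 rose from 9.73 ± 0.681 to 17.2 ± 0.791 FPKM and Foxo4 fell from 21.5 ± 1.79 to 12.2 ± 0.232 FPKM. H19, the imprinted noncoding RNA, stood at 2197, 2129, 2328 and 2141 FPKM in vehicle and 1512, 1455, 1429 and 1382 FPKM in bleomycin, while Igf2, its neighbour, stood at 2196 ± 58.7 and 2548 ± 131 FPKM, a difference whose call ended with median-of-ratios scaling (limma adjusted p = 0.0593). Malat1, a nuclear noncoding RNA, went from 23.7, 36.5, 29.4 and 26.4 FPKM to 52.3, 57.5, 84.7 and 104 FPKM, with bleomycin replicates 3 and 4 above the others, and the snoRNA hosts Snhg3 (41.3 ± 2.53 and 25.4 ± 2.8 FPKM) and Zfas1 (103 ± 6.68 and 74.5 ± 2.81 FPKM) fell.

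Most respiratory genes were not called, and more folding genes fell than rose. Of 83 nuclear-encoded subunits of the respiratory chain 15 rose, 15 fell and 53 were not called. Both shares were below those of all genes, 28.3% higher and 19.8% lower. With median-of-ratios scaling 9 of the subunits rose and 20 fell, against 2898 and 2920 of all 12348 genes. A gene of a tissue-specific complex IV subunit was among those that rose, with Cox6b2 at 4.63 ± 0.626 and 17.5 ± 2.98 FPKM. In the glycolysis and hypoxia list 19 of 43 rose and 9 fell, with Pdk2, which restrains pyruvate oxidation, at 3.78 ± 0.373 and 8.27 ± 0.19 FPKM and the lactate transporter gene Slc16a1 at 34.4 ± 4.58 and 23.2 ± 0.771 FPKM. Mitochondrial chaperonin genes fell, Hspd1 from 162 ± 12.5 to 91.4 ± 3.28 FPKM and Hspe1 from 204 ± 2.77 to 137 ± 6.55 FPKM, while the small heat shock genes Hspb1 (16.6 ± 2.12 and 29.9 ± 2.2 FPKM) and Hspb8 (25.6 ± 0.251 and 46.9 ± 1.71 FPKM) rose. Of 31 genes of folding in the endoplasmic reticulum 12 fell and 2 rose, and of 28 proteasome genes 10 fell and 3 rose. Of 284 zinc finger genes with Zfp symbols 60 rose, 11 fell and 213 were not called. Both shares were below those of all genes tested, of which 28.3% rose and 19.8% fell. With quantile normalization 24 zinc finger genes rose and 19 fell, against 2777 and 2952 of all 12348 genes.

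Markers of other cell types than those given above moved as follows. None of 6 endothelial and none of 5 erythroid markers passed the filter. Among 8 fibroblast and synovial markers, with summed levels of 1532 to 1713 FPKM in vehicle and 1776 to 1858 FPKM in bleomycin, 7 were tested and 4 rose, including Dpt, dermatopontin (3.23 ± 1.01 and 7.48 ± 0.245 FPKM), and Pi16 was under 0.1 FPKM in all 8 libraries. Of 5 osteoblast markers (summed levels 29.1 to 36.8 and 22.3 to 29.9 FPKM) 3 fell, including Alpl (10.6 ± 0.723 and 5.85 ± 0.508 FPKM), and Bglap, which had passed through the bleomycin libraries, rose to 2.79 ± 0.868 FPKM. The 4 tendon markers (380 to 489 and 680 to 723 FPKM) held Tnmd, which fell, and Fmod, which rose from 393 ± 49.6 to 677 ± 16.3 FPKM. The 5 muscle markers summed to 3.47 to 5.52 and 3.78 to 5.6 FPKM, and neither of the 2 tested was called. The part of such cells in the results was not tested.

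By annotation class, 417 processed pseudogenes passed the filter, of which 139 fell and 21 rose, against 2193 lower and 3314 higher of 11328 protein-coding genes. Many such entries are copies of ribosomal and other abundant genes, so their reads may belong to the parent gene. Of 94 genes annotated as antisense 37 rose and 7 fell, and of 24 noncoding genes at bidirectional promoters 13 rose, but without stated strand use in counting their reads cannot be told from those of the partner gene. Among protein-coding genes sorted by genomic span, 2-fold increases numbered 111 in the shortest of 5 equal classes (0.18 to 8.41 kb) and 37 in the longest (69.43 to 2960.9 kb), and 2-fold decreases 33 and 10. By level, 30.9% of the genes in the highest of 5 classes fell and 28.3% rose, while in the lowest class 12.3% fell and 31.2% rose.

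Bleomycin was then set directly against the other drug. Between the bleomycin and doxorubicin libraries 1101 genes differed (8.92%), 655 higher (5.3%) and 446 lower (3.61%) with bleomycin, and 46 at least 2-fold (0.373%), 3 higher (0.0243%) and 43 lower (0.348%). The count of 1101 was 621, 636 and 663 without bleomycin replicate 1, 2 and 3 respectively, 711 with the replicate number as a block and 718 with no filter. Doses and times of the drugs differ. The 3 were Msmp, Smpd3 and Gm27021, the last 2 named after their values were seen. Msmp stood at 289 ± 39.7 FPKM with bleomycin and 122 ± 14.8 FPKM with doxorubicin (log2 difference 1.24 ± 0.11, adjusted p = 0.000417). Cdkn2a, the p16 locus, stood at 6.2, 6.84, 5.69 and 5.78 FPKM in vehicle, 12.9 ± 0.924 FPKM with bleomycin and 6.35 ± 1.02 FPKM with doxorubicin (log2 difference of the drugs 0.92 ± 0.11, adjusted p = 0.00127). Birc5, the gene of survivin, which acts in mitosis, was lower with doxorubicin (22.8 ± 2.72 and 11.7 ± 1.7 FPKM, adjusted p = 0.00177), and so was Lmnb1 (8.26 ± 0.462 and 3.91 ± 0.498 FPKM, adjusted p = 0.000507). Acute-phase and chemokine genes were among those lower with bleomycin. Saa3 stood at 50.6 ± 15.8 FPKM with bleomycin and 1543 ± 790 FPKM with doxorubicin (log2 difference -4.82 ± 0.34, adjusted p = 0.000213), Lcn2 at 27.2 ± 3.89 and 340 ± 162 FPKM, C3 at 5.47 ± 0.732 and 44 ± 9.75 FPKM, and Cxcl5 at 17.7 ± 3.72 and 104 ± 29.1 FPKM. Adipoq was also lower with bleomycin, 4.06 ± 1.08 against 13.9 ± 2.98 FPKM. Isg15 (75.4 ± 20.1 and 96.8 ± 6.32 FPKM, adjusted p = 0.166) and Cth (9.95 ± 0.676 and 12 ± 1.29 FPKM, adjusted p = 0.0957) were not called between the drugs.

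Against IL-1β 6267 genes differed (50.8%), 3324 higher (26.9%) and 2943 lower (23.8%) with bleomycin, and 754 of them at least 2-fold (6.11%), 426 higher (3.45%) and 328 lower (2.66%). Saa3 alone made up 12 to 14.4% of the summed FPKM in the IL-1β libraries. Msmp stood at 289 ± 39.7 FPKM with bleomycin and 0.658 ± 0.308 FPKM with IL-1β, Isg15 at 75.4 ± 20.1 and 3.11 ± 0.935 FPKM, Penk at 1286 ± 65.5 and 89.8 ± 8.18 FPKM, and Dkk3 at 254 ± 16.5 and 15 ± 1.2 FPKM. Cxcl1 stood at 8.23 ± 1.53 FPKM with bleomycin and 1438 ± 63.7 FPKM with IL-1β (log2 difference -7.30 ± 0.11, adjusted p = 1.65e-10), and Lcn2 at 27.2 ± 3.89 and 4542 ± 796 FPKM; all 6 genes were called.

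**Figure D5:**
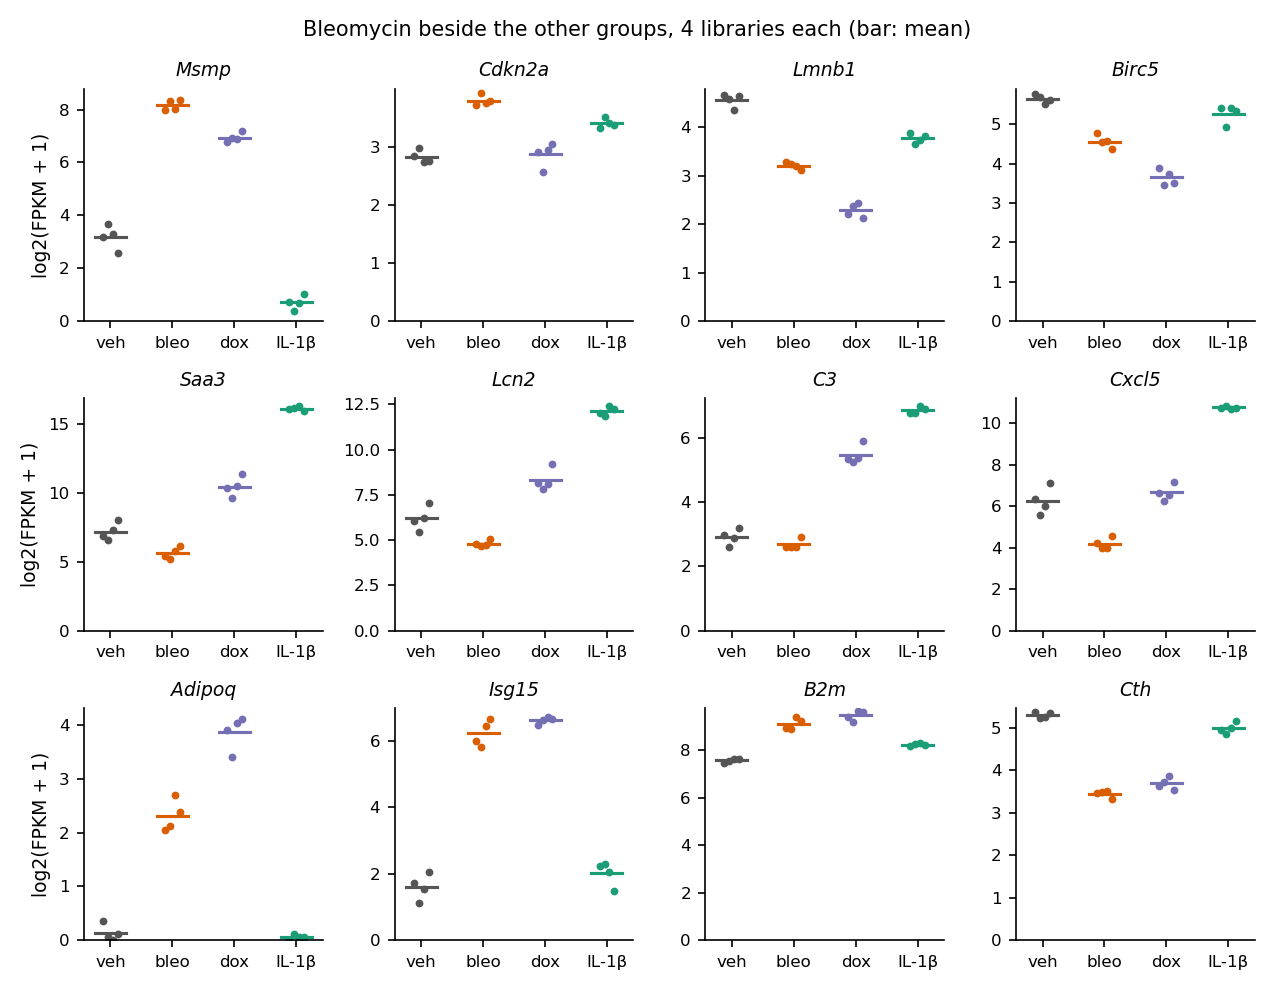
Levels of 12 genes on the log2(FPKM + 1) scale in vehicle (veh), bleomycin (bleo), doxorubicin (dox) and IL-1β, 4 libraries each, with bars at the means. The means of Msmp and Cdkn2a are highest with bleomycin, while Saa3, Lcn2, C3 and Cxcl5 are lowest with bleomycin and highest with IL-1β.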

How the data were processed

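Poly(A) RNA of 4 libraries per group was sequenced from stranded libraries, per the labels' protocols. The submitters' processing notes name Trimmomatic, STAR and the build GRCm38; versions, annotation, the tool that gave FPKM and its use of strand are not given in the sources used here. Deposited values are FPKM per gene and library, made by the authors; counts were not recovered, since 65.8 to 68% of low values were whole multiples of 1 fragment (tolerance 0.1), and depth is an estimate from those steps. Of the 55450 gene IDs, 54398 match GENCODE M21 with version, which gave coordinates.

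The 12348 genes that reached 1 FPKM in 4 or more of the 8 libraries were tested on log2(FPKM + 1), which understates the change of low genes, with limma 3.58.1 (R 4.3.3; variance trend on the mean level, 2-sided, Benjamini-Hochberg over all genes tested; changed at an adjusted p under 0.05). The same genes were tested between bleomycin and doxorubicin and between bleomycin and IL-1β libraries. For bleomycin against vehicle, data of 12348 genes were simulated with independent normal noise. In these, only 100 genes were changed by 1 on the log2 scale and 100 by 0.5. The fit recovered 96% and 74% of them and called 8 unchanged genes. Far fewer genes were changed there than the 48.0% called in the data, so these figures hold for the simulation only. No pair of replicates shared more than 0.024% of values. Named genes are the 15 largest increases and 15 largest decreases without overlap and with a mean of at least 5 FPKM, marked and leading members of gene lists, up to 4 per list by adjusted p and up to 2 against its majority, and the 10 most abundant genes. Members and lists were chosen with earlier results of these data known. Lists were counted, not tested. The alternatives were pseudocounts of 0.1 and 0.01 FPKM, no filter, a mean of at least 5 FPKM, median-of-ratios scaling, quantile normalization, a fit on all 16 libraries, a replicate block, robust limma and leaving out each library.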

Additional observations from a re-analysis of the deposited data

Results flagged for a closer look

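In 23 of the 478 groups of 4 libraries behind the genes named here, 1 library lay far from the other 3, with a gap to the nearest larger, against the group's range, than Dixon's 95% critical value. Chance alone marks about 1 in 20 groups. Levels are in FPKM. A single high vehicle library was found for Abca1 (replicate 4 at 4.52, others 2.83 to 2.93), Cpt1a (replicate 2 at 6.1, others 5.11 to 5.17), Ddit3 (replicate 3 at 66.1, others 61.6 to 61.9) and Gm49394 (replicate 3 at 446, others 151 to 185). The same held for Hyal2 (replicate 3 at 9.88, others 6.28 to 6.89) and Slc6a6 (replicate 2 at 17.4, others 15.2 to 15.4). A single low vehicle library was found for Hapln1 (replicate 1 at 166, others 200 to 202), Hspb8 (replicate 2 at 25.3, others 25.7 to 25.8), Irf7 (replicate 2 at 0.0679, others 0.517 to 0.604) and Pdgfc (replicate 3 at 6.86, others 9.4 to 9.48). The same held for Phlda3 (replicate 4 at 53.3, others 61.4 to 62) and Ube2c (replicate 3 at 53.3, others 57.2 to 58). A single high bleomycin library was found for C3 (replicate 4 at 6.57, others 5.07 to 5.13), Ccl5 (replicate 2 at 5.61, others 3.56 to 3.76), Gdf10 (replicate 3 at 18.6, others 14.5 to 14.9) and Grem1 (replicate 4 at 44.2, others 29.9 to 30.6). The same held for Npc2 (replicate 4 at 104, others 95.8 to 97) and Steap1 (replicate 2 at 30.3, others 27.1 to 27.4). A single low bleomycin library was found for Adam12 (replicate 2 at 0.897, others 1.19 to 1.21), H2-T23 (replicate 2 at 21.4, others 28.1 to 29.4), Rps3 (replicate 4 at 1030, others 1086 to 1096) and Shmt2 (replicate 4 at 75.5, others 85.2 to 86.5). The same held for Slc43a2 (replicate 3 at 2, others 2.43 to 2.51). Among these, Gm49394 overlaps Igf2, so its reads are uncertain in all libraries.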

How the results depend on the processing

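The count of 5929 changed genes stayed between 5259 and 5695 without any 1 library, with 3094 to 3308 higher and 2129 to 2387 lower, and the share of increases, 58.9%, was 58.1 to 59.7% without any 1 library, and 49.8% (median-of-ratios scaling) and 48.5% (quantile normalization) when libraries were rescaled. The 442 genes changed at least 2-fold were 825 with a pseudocount of 0.1 FPKM (603 higher, 222 lower), 867 with 0.01 FPKM (636 higher, 231 lower) and 283 among genes with a mean of at least 5 FPKM (194 higher), and 434 to 461 without any 1 library (325 to 347 higher, 106 to 117 lower). The 1101 genes that differed from doxorubicin were 718 with no filter, 711 with the replicate number as a block and 621 to 977 without any 1 library; against IL-1β 5641 to 5997 genes differed without any 1 library. Col2a1, -0.49 on the log2 scale, was 0.00 with quantile normalization, by the construction of that scaling, and its call ended with no filter (limma adjusted p = 0.113). The calls of Igf2 (0.15, median-of-ratios scaling) and Gm24452 (-3.59, pseudocount of 0.01 FPKM) also ended, and the cause was not tested.

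Same-numbered bleomycin and vehicle libraries deviated together only weakly (correlations 0.104, 0.064, 0.242 and 0.207), so the numbers were not taken as pairs, although each library correlated best with its own number. With the replicate block 6123 genes changed.

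FPKM give no counts, so counting error could not be separated from spread between libraries, and values under about 1 FPKM rest on few fragments. With 4 libraries a group, and without stated separate cultures the p-values speak for these libraries. Bleomycin, hyaluronidase and time in culture cannot be told apart.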

Other observations

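Gene groups not described above had counts to be read against all genes, of which 28.3% rose and 19.8% fell; all levels are means ± SD in FPKM (n = 4), vehicle first. Of 12 tested prostaglandin and nitric oxide genes 4 rose and 4 fell. Ptgs1, the constitutive cyclooxygenase gene, stood at 5.83 ± 0.695 and 9.07 ± 0.713 FPKM, Ptges, prostaglandin E synthase, at 8.5 ± 1.06 and 15 ± 0.849 FPKM, and Hpgd, the enzyme that inactivates prostaglandins, at 3.63 ± 0.751 and 7.8 ± 1.89 FPKM. Of 29 tetraspanins and annexins 11 rose, 1 of them through the filter by bleomycin alone, and 6 fell. Among those that rose was the exosome marker Cd81, at 147, 140, 139 and 155 FPKM in vehicle and 289, 273, 283 and 270 FPKM in bleomycin. Another exosome marker, Cd151, stood at 90.5 ± 8.58 and 160 ± 22.6 FPKM. Of 29 collagen processing genes 8 rose and 10 fell. Pcolce, which enhances procollagen cleavage, rose from 510 ± 43.5 to 788 ± 18.1 FPKM, and Bmp1, the protease it enhances, from 25.4 ± 1.87 to 35.8 ± 2.1 FPKM. The cross-linking enzyme gene Loxl4 fell from 268 ± 5.61 to 206 ± 15.3 FPKM.

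Factors of the cell cycle did not all fall. Of 17 E2F factors and S-phase cyclins 9 fell, among them Ccna2, cyclin A2 (32.4 ± 3.04 and 15.4 ± 0.564 FPKM), and the repressor gene E2f7 (3.5 ± 0.597 and 1.5 ± 0.211 FPKM). E2f1, an activator, was higher, at 12.3, 11.5, 10.5 and 11.1 FPKM in vehicle and 14.8, 14.2, 13.6 and 14 FPKM in bleomycin. Kif1a, a motor of neuronal transport, stood at 0.316, 0.385, 0.334 and 0.315 FPKM in vehicle and 1.67, 2.12, 2.22 and 2.58 FPKM in bleomycin, having passed the filter through the bleomycin libraries, while the mitotic kinesin Kif2c fell from 11.4 ± 0.915 to 6.16 ± 0.624 FPKM. Il1r1, the IL-1 receptor, fell from 24 ± 3.29 to 17.2 ± 1.97 FPKM.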
